A study of Mus musculus with 12 samples.

Results

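The genes described here are 38 mouse genes of glucose transport, glycolysis, the pentose phosphate pathway and the response to low oxygen. They were chosen by gene symbol and pathway, with earlier results of these data known, from the 12850 genes listed in a table of RNA-seq expression, and all 38 were present. RNA was sequenced from thioglycollate-elicited peritoneal exudate cells (PECs), the cells that gather in the peritoneal cavity after an irritant is injected. Before RNA was collected, the cells were cultured with or without LPS, a component of the bacterial cell wall that is sensed by TLR4. The design has 6 groups of 2 libraries, 12 in all. WT PECs came from C57BL/6 mice, and S513A PECs came from *Zc3h12a* S513A/S513A mice, in which genome editing in C57BL/6J eggs changed 1 serine codon of *Zc3h12a* to alanine. Cells of both genotypes were collected 3.5 days after an injection of 2 ml of 4% Brewer's thioglycollate medium and received 100 ng/ml LPS for 0, 4 or 8 hr. Every cell of an S513A mouse carries the allele, so it is not limited to 1 cell type, and a count per gene does not show the edited codon. The labels do not say whether the replicates are separate mice, so p values measure the spread between these libraries, which may be partly technical.

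*Zc3h12a* encodes Regnase-1, an RNase that degrades mRNAs of inflammatory genes, and the serine lies in a site through which phosphorylated Regnase-1 binds 14-3-3 proteins. Glycolysis splits glucose into pyruvate in the cytosol, and pyruvate either enters mitochondria or is reduced to lactate and exported. The pentose phosphate pathway branches off at glucose 6-phosphate and yields NADPH and ribose. HIF-1 is a transcription factor whose alpha subunit is hydroxylated by prolyl hydroxylases and degraded when oxygen is plentiful. In macrophages, LPS is known to raise HIF-1 alpha and to shift metabolism towards glycolysis.

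Levels are given as log2 CPM, the log2 of reads scaled to the size of the library, as deposited. The libraries held 9525979 to 12439960 reads on the listed genes. The floor of 3 reads lies at -2.04 to -1.30 on this scale, depending on the library, and covers counting error only. The lowest member, *Ankrd37*, had 3 to 24 reads per library, and *Egln3* had 14 to 43, *Pfkm* 15 to 116, *P4ha2* 17 to 57 and *Vegfa* 34 to 518. All 38 genes passed the filter of 1 CPM in 2 libraries and were tested with limma among 11885 genes, with p values adjusted by the Benjamini-Hochberg method over all of them. "Rose" and "fell" are used for an adjusted p under 0.05, and unless a genotype is named, for the mean of WT and S513A. All 9 macrophage markers examined were listed, and their summed level was between 16813 and 27953 CPM per library. Of 11 neutrophil markers 3 were listed, with a sum of 660 to 746 CPM at 0 hr, 445 to 689 CPM at 4 hr and 362 to 575 CPM at 8 hr, while *Ly6g*, *S100a9* and *Mpo* were not listed. Of 6 eosinophil markers 2 were listed, with a sum of 15.3 to 18.5 CPM at 0 hr, 8.0 to 10.0 CPM at 4 hr and 3.6 to 4.6 CPM at 8 hr, and *Epx* and *Prg2* were not. The part of these declines in the changes below was not tested, and in bulk RNA fewer cells of a type cannot be told apart from less RNA per cell. Replicates of a group differed over the 38 genes with an SD of 0.359 (log2 scale) in WT PECs at 4 hr, 0.318 and 0.313 in S513A PECs at 4 and 8 hr, and 0.153 to 0.218 in the other groups. In these 3 groups the replicates differed in a shared direction. Over the 11885 genes, the deviation of S513A replicate 1 at 8 hr from its group mean correlated at 0.417 with that of S513A replicate 1 at 4 hr and at -0.412 with that of WT replicate 1 at 4 hr, so WT replicate 2 at 4 hr and replicate 1 of both S513A groups lay on the same side. These 3 libraries are called the deviating libraries below, although with 2 replicates neither of a pair can be called wrong, and counts without them are given. Where a library outside a comparison is left out, the difference stays the same. Only the estimated spread changes then, so a threshold passed in that way does not mean a larger difference.

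HIF-1 and HIF-2 bind DNA at a short core, of which ACGTG is the commonest form. The 250 bases before each start site in the RefSeq promoters of GRCm38 were searched for ACGTG on both strands, where it reads CACGT on the reverse strand. The search also takes in the E-box CACGTG, which holds both readings. Of the 38 genes, 37 had a promoter in the table, and 22 of them (59.5%) held the core before at least 1 of their start sites, against 18.5% of all 27025 genes and 16.6% of all 32851 promoter windows of that length. Several members are on the list because they are textbook HIF-1 targets, so the difference in these shares is a description of the list. The core stood before genes of both directions described below, in 6 of the 8 that rose at 4 hr in 9 of the 14 that fell and had a promoter, and in 7 of the 15 that did not pass the threshold. Windows of 30 bases are shown 5′ to 3′ for 4 genes that rose and 4 that fell at either time, with the core in capitals, to let the 2 classes be compared.
*Slc2a1*, rose, chr4:119108697-119108726, plus strand: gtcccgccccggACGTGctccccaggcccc
*Hk2*, rose, chr6:82774489-82774518, minus strand: aatgagcacatcCACGTcactgtccggggc
*P4ha2*, rose, chr11:54100834-54100863, plus strand: tgtgcatcgcatACGTGcagcgcgtggcgg
*Hif1a*, rose, chr12:73907785-73907814, plus strand: tggctgagagcaACGTGggctggggtgggg
*Slc16a3*, fell, chr11:120949037-120949066, plus strand: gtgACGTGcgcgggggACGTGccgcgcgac
*Ldha*, fell, chr7:46845755-46845784, plus strand: aCACGTGggttcccgCACGTccgctgggct
*Bnip3*, fell, chr7:138909596-138909625, minus strand: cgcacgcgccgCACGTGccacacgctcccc
*Vegfa*, fell, chr17:46025357-46025386, minus strand: ggagtgcgtgccCACGTcagagagcaacat
A match shows that these letters are present and not that a factor binds there. The second core form, GCGTG, was found before 27 of the 37 genes (73%), against 30.9% of all genes.

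At 4 hr, the glucose transporter genes *Slc2a1* and *Slc2a6*, the platelet phosphofructokinase, *Hif1a* and the collagen prolyl hydroxylases rose. The pyruvate dehydrogenase kinase genes *Pdk1* and *Pdk3*, *Epas1*, *Vegfa* and much of the glycolytic chain fell. Of the 38 genes, 8 rose (21.1%) against 29.1% of all genes tested, and 15 fell (39.5%) against 26.7%. At 8 hr, 12 rose (31.6%) against 24.5% of all genes, and 10 fell (26.3%) against 21.6%. The median log2 difference of the 38 genes was -0.17 at 4 hr and -0.084 at 8 hr, and that of all genes tested was 0.017 and -0.00070. Between 4 and 8 hr, 11 genes rose (28.9%) against 12.8% of all genes, and 4 fell (10.5%) against 12.8%. The 3 comparisons share libraries, so they are not independent of each other. The summed level of the 38 genes was between 8875 and 11230 CPM in each library. Without the 3 deviating libraries, 10 genes rose and 17 fell at 4 hr, against 33.5% and 30.3% of all genes in that fit. In it 14 rose and 13 fell at 8 hr, against 29.6% and 25.3%, and 11 rose and 5 fell from 4 to 8 hr, against 17.4% and 16.3%. With quantile normalization, 8 rose and 23 fell at 4 hr, against 25.1% and 30% of all genes, and 9 rose and 16 fell at 8 hr, against 20.8% and 25.9%. In that fit *Hk3*, *Pfkp* and *G6pdx* were no longer past the threshold at 8 hr, with log2 differences of 0.01, 0.14 and 0.08.

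**Figure D1:**
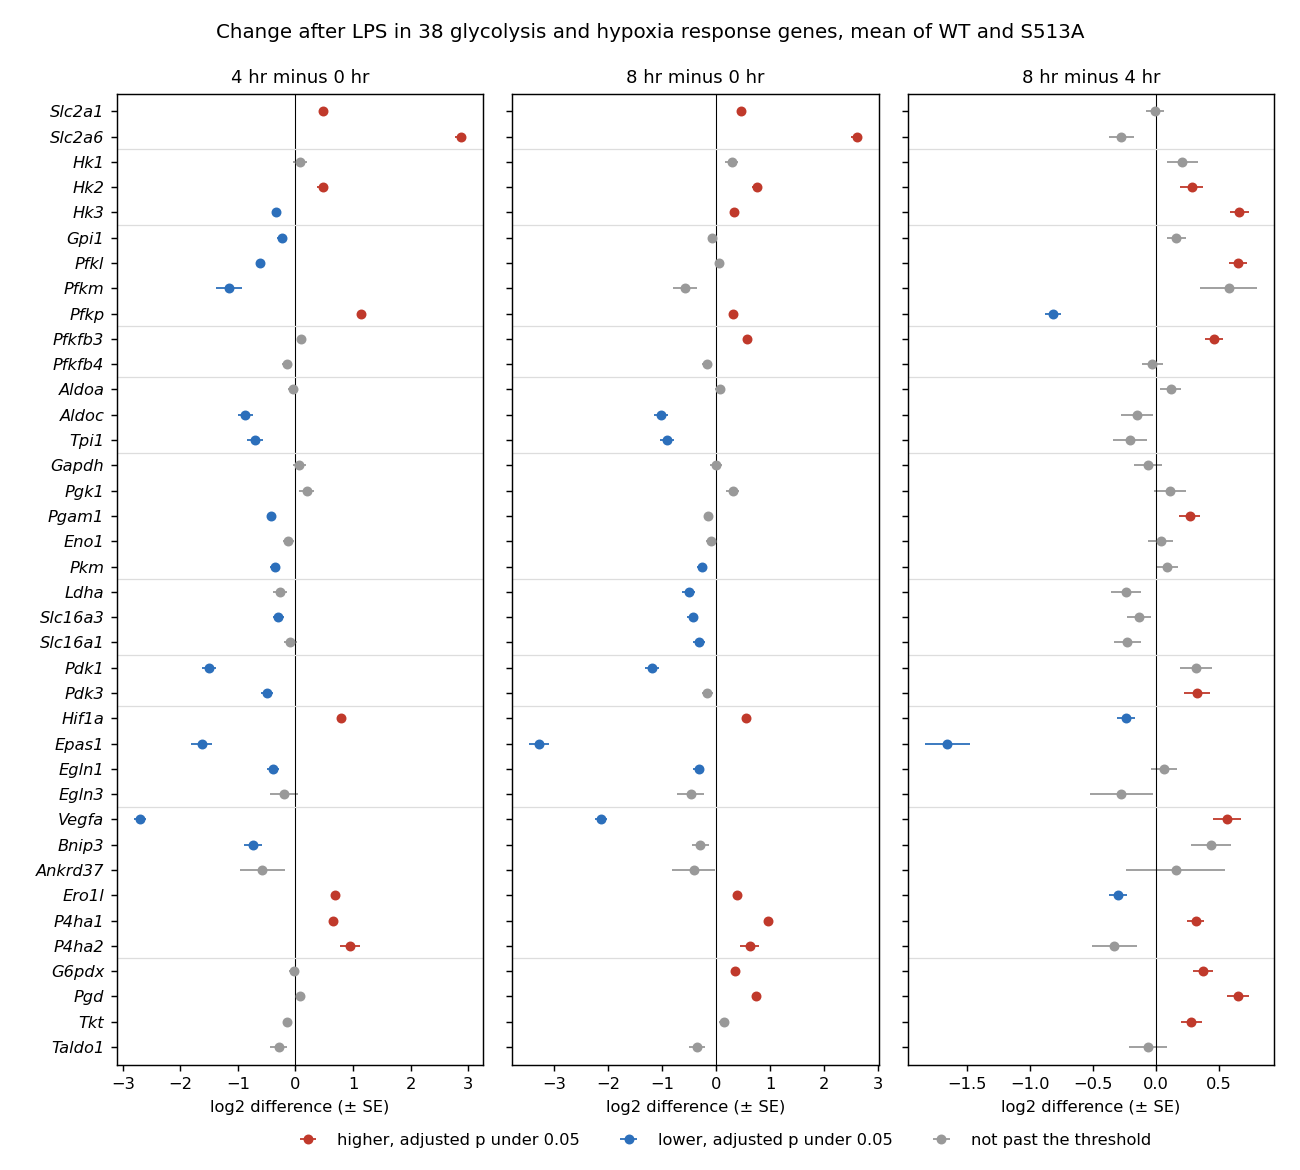
Log2 differences in level (x axes, limma, ± SE, mean of WT and S513A) of the 38 genes (y axis, grouped by role and separated by grey lines) at 4 hr against 0 hr, 8 hr against 0 hr and 8 hr against 4 hr. Red points passed the threshold upwards and blue points downwards. *Slc2a6* lies at 2.87 and 2.60 and *Vegfa* at -2.70 and -2.14 in the first 2 panels, and *Epas1* at -1.66 in the third.

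Transcripts of both glucose transporters among the 38 genes rose at both times. *Slc2a6*, which encodes GLUT6, a glucose transporter known from lysosomes of macrophages, lies on chromosome 2 from 27021363 to 27028000 (GRCm38) and had the largest increase of the 38 genes. Its log2 CPM was 6.34 and 6.02 in WT and 6.29 and 6.43 in S513A PECs at 0 hr. At 4 hr it was 9.04 and 9.08 in WT and 9.29 and 9.16 in S513A PECs, and at 8 hr 8.57 and 8.85 in WT and 9.09 and 8.96 in S513A PECs. All 8 libraries after LPS lay above all 4 libraries at 0 hr, and the difference was 2.87 ± 0.097 (SE) at 4 hr (7.33-fold, limma adjusted p = 1.75e-09). At 8 hr it was 2.60 ± 0.097 (6.05-fold, limma adjusted p = 5.23e-09). *Slc2a1*, which encodes GLUT1, the transporter of basal glucose uptake, ranged from 6.31 to 6.38 at 0 hr and from 6.68 to 6.89 after LPS. It rose less, 1.39-fold at 4 hr and then 1.38-fold (limma adjusted p of 0.000173 and 0.000258). Per kb of the principal coding transcript, *Slc2a6* held 54.6% to 62.2% of the summed level of these 2 transporters at 0 hr and 84% to 89.5% after LPS.

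Hexokinases, which trap glucose in the cell as glucose 6-phosphate, changed in different directions by isoform. *Hk2*, the mitochondria-bound inducible isoform, ranged from 6.00 to 6.17 at 0 hr, 6.33 to 6.86 at 4 hr and 6.65 to 7.10 at 8 hr. It rose by 0.47 ± 0.093 at 4 hr and 0.76 ± 0.093 at 8 hr. *Hk3*, the isoform typical of myeloid cells, ranged from 9.11 to 9.26 before LPS and from 8.76 to 8.98 at 4 hr, and fell with a difference of -0.33. At 8 hr it ranged from 9.31 to 9.68 and was above 0 hr by 0.33. Within one genotype this difference was 0.15 in WT PECs, which missed the threshold, and 0.51 in S513A PECs, which passed it. *Hk1*, the housekeeping isoform, missed the threshold, with differences of 0.08 and 0.28, and the second passed it without either WT library at 4 hr or S513A replicate 2 at 8 hr (limma adjusted p = 0.022, 0.0221 and 0.0356). Per kb, *Hk3* held 74.1% to 85.2% of the hexokinase level in every library, so the minor isoform *Hk2* is the one whose increase held at both times, with 5.53% to 6.03% of the level at 0 hr and 7.07% to 10.5% after LPS.

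Phosphofructokinase commits fructose 6-phosphate to glycolysis and is built from liver, muscle and platelet subunits. *Pfkp*, the platelet type (chromosome 13, 6579874 to 6649060), stood at 6.31 and 6.37 in WT and 6.49 and 6.45 in S513A PECs at 0 hr, and at 7.55 and 7.48 in WT and 7.60 and 7.54 in S513A PECs at 4 hr. At 8 hr it was back at 6.66 and 6.74 in WT and 6.73 and 6.77 in S513A PECs, still above every 0 hr library. It rose 2.19-fold at 4 hr (log2 difference 1.13 ± 0.065, limma adjusted p = 1.02e-07) and fell by 0.82 on the log2 scale between 4 and 8 hr. *Pfkl*, the liver type, moved the other way. It ranged from 6.54 to 6.78 before LPS, from 5.96 to 6.11 at 4 hr and from 6.64 to 6.77 at 8 hr, a difference of -0.61 followed by one of 0.65. *Pfkm*, the muscle type (chromosome 15, 98092589 to 98132447), was at 3.02 and 2.86 in WT and 2.61 and 2.76 in S513A PECs at 0 hr. At 4 hr it was at 1.72 and 2.00 in WT and 2.06 and 0.85 in S513A PECs, and at 8 hr at 2.42 and 2.24 in WT and 2.15 and 2.13 in S513A PECs. The 4 hr and 8 hr libraries lay below all 0 hr libraries, with a difference of -1.15 ± 0.23 at 4 hr (limma adjusted p = 0.00129) and one of -0.58 at 8 hr that missed the threshold (limma adjusted p = 0.059) but passed it without either S513A library at 4 hr (limma adjusted p = 0.00513 and 0.00461). By level per kb, *Pfkp* held 37.3% to 44.5% of the phosphofructokinase transcripts at 0 hr, 68.4% to 72.2% at 4 hr and 43.8% to 47.5% at 8 hr, and the share at 4 hr did not overlap the shares at the other times.

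*Pfkfb3* and *Pfkfb4* encode the enzymes that set fructose 2,6-bisphosphate, the allosteric activator of phosphofructokinase. *Pfkfb3* stood at 5.84 to 6.00 at 0 hr, 5.98 to 6.17 at 4 hr and 6.44 to 6.61 at 8 hr. It did not pass the threshold at 4 hr and rose by 0.56 ± 0.071 at 8 hr (1.48-fold, limma adjusted p = 7.16e-05). *Pfkfb4* did not pass it at any time, with differences of -0.14 and -0.17.

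**Figure D2:**
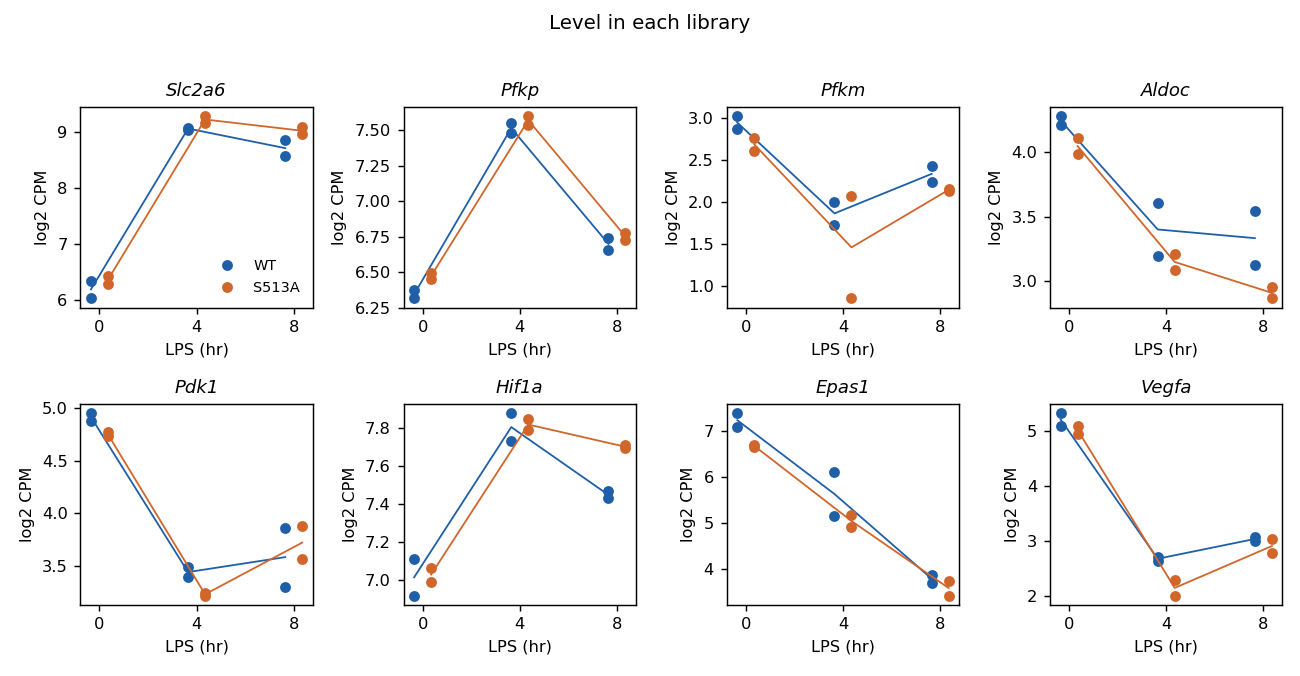
Level (log2 CPM, y axes, own scale per panel) of 8 genes in each of the 12 libraries against hours of LPS (x axes), with WT in blue and S513A in orange and lines through the group means of 2 libraries. *Slc2a6*, *Pfkp* and *Hif1a* are highest at 4 hr, *Pfkm*, *Pdk1* and *Vegfa* are lowest at 4 hr in both genotypes, and *Epas1* falls at each step.

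In the rest of upper glycolysis the minor aldolase and triose phosphate isomerase fell. *Aldoc* (chromosome 11, 78323073 to 78327781), the brain-type aldolase, was at 4.21 and 4.28 in WT and 4.11 and 3.98 in S513A PECs at 0 hr. At 4 hr it was at 3.61 and 3.19 in WT and 3.09 and 3.21 in S513A PECs, and at 8 hr at 3.54 and 3.13 in WT and 2.87 and 2.95 in S513A PECs. Every library after LPS lay below every 0 hr library, with differences of -0.87 ± 0.13 and -1.02 ± 0.13 (limma adjusted p = 0.000156 and 6.15e-05). *Aldoa*, the main aldolase, held 99% or more of the aldolase level per kb in every library, and its differences were -0.05 and 0.06. With quantile normalization they were -0.50 and -0.29 and passed the threshold. *Tpi1*, which interconverts the 2 triose phosphates, fell by 0.70 and 0.91 on the log2 scale. Its lowest libraries, at 7.44 and 7.71, were S513A replicate 1 at 8 hr and WT replicate 2 at 4 hr, both among the deviating libraries. *Gpi1*, which converts glucose 6-phosphate to fructose 6-phosphate, fell by 0.24 at 4 hr only among the 3 comparisons of times, and missed the threshold without WT replicate 1 at 0 hr, without S513A replicate 1 at 0 hr or without S513A replicate 2 at 4 hr (limma adjusted p = 0.0921, 0.0702 and 0.0689).

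None of the 5 genes of lower glycolysis rose in the mean of genotypes from 0 hr. *Pkm*, pyruvate kinase, which makes pyruvate and ATP, was the highest by CPM and ranged from 10.23 to 10.80. It fell at both times, by 0.36 and 0.27 (limma adjusted p = 0.00526 and 0.0263), and the second of these missed the threshold in 6 of the 12 fits that left out 1 library (limma adjusted p = 0.0555 to 0.102), all those without a 0 or 8 hr library other than WT replicate 2 at 0 hr and S513A replicate 2 at 8 hr. At 8 hr *Pkm* differed by -0.20 in WT PECs, which missed the threshold, and by -0.35 in S513A PECs, which passed it. Phosphoglycerate mutase, *Pgam1*, fell by 0.42 at 4 hr and rose by 0.27 from 4 to 8 hr. That rise missed the threshold in the fit of only the libraries compared (limma adjusted p = 0.0649) and in most fits without 1 library. *Gapdh*, *Pgk1* and *Eno1*, for the dehydrogenase, the kinase that returns the first ATP and enolase, had differences between -0.13 and 0.30 that did not pass the threshold. *Pgk1* had the 0.30, at 8 hr, and passed the threshold there without either WT library at 4 hr or S513A replicate 1 at 8 hr (limma adjusted p = 0.0202, 0.0204 and 0.0299), and at 4 hr without WT replicate 2 at 4 hr (difference 0.32, limma adjusted p = 0.022). Within one genotype at 8 hr, its difference was 0.57 in WT PECs (limma adjusted p = 0.0293) and 0.04 in S513A PECs. The WT value missed the threshold without any one WT library at 0 or 8 hr (limma adjusted p = 0.0921 to 0.138) and was 0.16 with quantile normalization. *Eno1* fell with quantile normalization, with differences of -0.54 and -0.38. Part of the sequence of these 5 genes is shared. Of the 50-base windows in their annotated exons, 53.9% for *Pgk1*, 36.2% for *Pgam1*, 26% for *Eno1*, 25.8% for *Pkm* and 25.1% for *Gapdh* also occur in transcripts of other annotated genes. Those other genes number 223 for *Gapdh*, 23 for *Eno1*, 8 for *Pkm*, 5 for *Pgk1* and 4 for *Pgam1*. *Gapdh* was listed at a mean of 74 CPM or 52.1 CPM per kb, against 758 CPM per kb for *Aldoa*, 599 for *Pkm* and 205 for *Pgk1*. Whether the shared windows bear on these levels was not tested, and the levels of these 5 genes are uncertain to that extent.

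Transcripts for lactate production and export fell at 8 hr in the mean of genotypes. Within one genotype, 1 of the 3 genes passed the threshold at 8 hr in WT PECs and 2 in S513A PECs. *Ldha*, which reduces pyruvate to lactate, ranged from 9.44 to 9.56 at 0 hr, 8.93 to 9.44 at 4 hr and 8.64 to 9.22 at 8 hr. It fell at the later time by 0.51 ± 0.12 (limma adjusted p = 0.00444) and missed the threshold at 4 hr (difference -0.27, limma adjusted p = 0.0692), which it passed without WT replicate 1 at 4 hr (difference -0.40, limma adjusted p = 0.00441). *Slc16a3*, which encodes MCT4, the main lactate exporter of glycolytic cells, fell by 0.30 at 4 hr and 0.44 at 8 hr. The first of these missed the threshold without WT replicate 1 at 0 hr, WT replicate 2 at 4 hr or S513A replicate 2 at 0 or 4 hr (limma adjusted p = 0.0846, 0.0517, 0.0607 and 0.0697). *Slc16a1*, for MCT1, which carries lactate in both directions, fell by 0.32 at 8 hr (limma adjusted p = 0.0366), and missed the threshold without any one 0 or 8 hr library other than S513A replicate 1 at 0 hr (7 fits, limma adjusted p = 0.0533 to 0.15). The lowest *Ldha* library was S513A replicate 1 at 8 hr. Within one genotype, the 8 hr difference of *Ldha* was -0.30 in WT and -0.72 in S513A PECs, and only the second passed the threshold.

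Pyruvate dehydrogenase kinases switch off the entry of pyruvate into the citric acid cycle, and both among the 38 genes fell at 4 hr. *Pdk1* (chromosome 2, 71873215 to 71903858), a classical HIF-1 target, was at 4.88 and 4.96 in WT and 4.77 and 4.74 in S513A PECs at 0 hr. At 4 hr it was at 3.49 and 3.40 in WT and 3.22 and 3.24 in S513A PECs, and at 8 hr at 3.87 and 3.30 in WT and 3.88 and 3.57 in S513A PECs. The groups after LPS lay below 0 hr without overlap, at 0.353 and then 0.44 of the starting level. The log2 differences were -1.50 ± 0.13 and -1.18 ± 0.13 (limma adjusted p = 2.3e-06 and 2.09e-05). *Pdk3* fell by 0.49 at 4 hr and rose by 0.33 between 4 and 8 hr, when it was no longer past the threshold against 0 hr. The rise missed the threshold with quantile normalization (difference 0.28, limma adjusted p = 0.0766) and with a replicate block (limma adjusted p = 0.0562). It also missed it in most fits without 1 library.

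The 2 HIF alpha subunits moved apart. *Hif1a* (chromosome 12, 73901324 to 73947554), the oxygen-regulated subunit of HIF-1, was at 7.11 and 6.92 in WT and 6.99 and 7.06 in S513A PECs at 0 hr. At 4 hr it was at 7.73 and 7.88 in WT and 7.85 and 7.79 in S513A PECs, and at 8 hr at 7.47 and 7.43 in WT and 7.71 and 7.69 in S513A PECs. It rose 1.73-fold at 4 hr (log2 difference 0.79 ± 0.073, limma adjusted p = 4.39e-06) and was 1.47-fold above 0 hr at 8 hr. *Epas1* (chromosome 17, 86753864 to 86833410), which encodes HIF-2 alpha, was at 7.09 and 7.40 in WT and 6.67 and 6.70 in S513A PECs at 0 hr. It stood at 5.15 and 6.11 in WT and 5.17 and 4.91 in S513A PECs at 4 hr, and at 3.70 and 3.87 in WT and 3.75 and 3.41 in S513A PECs at 8 hr. The 3 times did not overlap, and the difference was -1.63 ± 0.18 at 4 hr and -3.28 ± 0.18 at 8 hr, where the level was 0.103 of that at 0 hr (limma adjusted p = 2.2e-05 and 1.1e-07). The WT library at 6.11 is replicate 2 at 4 hr. By level per kb, *Hif1a* made up 45.5% to 60% of the sum of both subunits at 0 hr, 79.9% to 89.6% at 4 hr and 93.2% to 95.8% at 8 hr. *Egln1*, for PHD2, the main prolyl hydroxylase that marks HIF alpha for degradation, fell by 0.39 and 0.32 (limma adjusted p = 0.00774 and 0.0246). The second of these missed the threshold without any one 0 or 8 hr library other than S513A replicate 1 at 8 hr (7 fits, limma adjusted p = 0.0503 to 0.0826). *Egln3*, for PHD3, had differences of -0.20 and -0.48 on 14 to 43 reads and did not pass the threshold, which the second passed without S513A replicate 2 at 8 hr (difference -0.72, limma adjusted p = 0.0323).

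**Figure D3:**
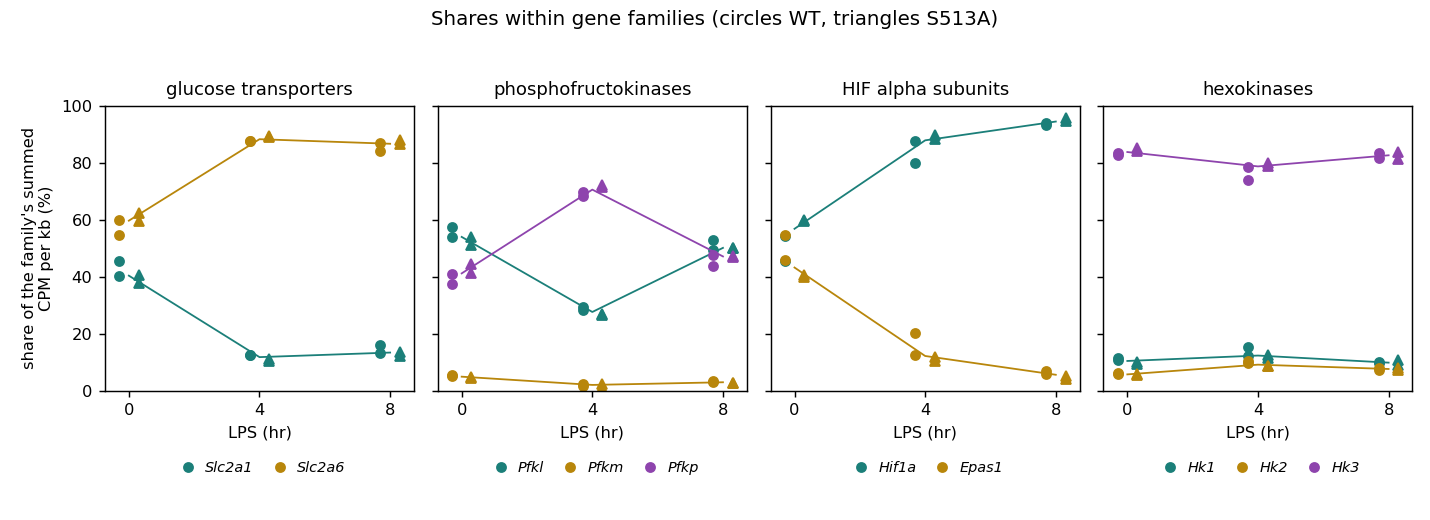
Share of each gene (y axes, percent) in the summed CPM per kb of its family against hours of LPS (x axes), with WT libraries as circles, S513A libraries as triangles and lines through the median of 4 libraries. *Pfkp* exceeds *Pfkl* at 4 hr in all 4 libraries, *Hif1a* reaches 93.2% to 95.8% at 8 hr, and *Hk3* stays at 74.1% or more.

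Genes of the HIF response split into 3 that rose and 2 that fell at 4 hr. *Vegfa* (chromosome 17, 46016993 to 46032377), the angiogenic growth factor and a standard marker of HIF activity, had the largest decrease at 4 hr. Its level was 5.09 and 5.32 in WT and 5.09 and 4.93 in S513A PECs at 0 hr, and 2.71 and 2.63 in WT and 2.28 and 2.00 in S513A PECs at 4 hr. At 8 hr it was 3.00 and 3.06 in WT and 3.03 and 2.78 in S513A PECs. All libraries after LPS lay below all those at 0 hr, at 0.154 and then 0.227 of the starting level. The log2 differences were -2.70 ± 0.11 and -2.14 ± 0.11 (limma adjusted p = 7.28e-09 and 6.21e-08), and *Vegfa* rose by 0.56 between the later times. *Bnip3*, a mitophagy receptor induced by HIF-1, fell by 0.73 ± 0.16 at 4 hr and had a difference of -0.30 at 8 hr that did not pass, except without either WT library at 4 hr (limma adjusted p = 0.0373 and 0.0359). Of its exon windows 47.2% also occur in other annotated genes. *Ankrd37*, an ankyrin repeat gene known as a HIF-1 target, had differences of -0.57 and -0.42 with a SE of 0.40, and no change was detectable at its 3 to 24 reads.

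The other 3 are endoplasmic reticulum enzymes, and in the mean of genotypes they rose at both times. At 8 hr all 3 passed the threshold within S513A PECs and 2 of them within WT PECs. *Ero1l*, the oxidase that feeds disulfide bond formation, rose by 0.69 at 4 hr and 0.39 at 8 hr. *P4ha1*, the main alpha subunit of the collagen prolyl 4-hydroxylase, ranged from 6.03 to 6.16 at 0 hr, 6.63 to 6.82 at 4 hr and 6.99 to 7.12 at 8 hr, and rose by 0.64 ± 0.068 and 0.96 ± 0.068 (limma adjusted p = 1.39e-05 and 7.33e-07). *P4ha2*, its second isoform, had group means of 1.35 at 0 hr and 1.58 at 8 hr in WT PECs, a difference that missed the threshold. In S513A PECs the means were 0.74 and 1.74. In the mean of genotypes *P4ha2* rose by 0.95 at 4 hr and 0.62 at 8 hr on 17 to 57 reads per library. The second of these differences missed the threshold without WT replicate 2 at 8 hr or S513A replicate 2 at 0 hr (limma adjusted p = 0.053 and 0.0629).

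None of the 4 pentose phosphate genes passed the threshold at 4 hr, where with quantile normalization all 4 fell by 0.34 to 0.74, and the 2 NADPH-producing dehydrogenases rose at 8 hr. *Pgd*, 6-phosphogluconate dehydrogenase, ranged from 9.86 to 10.09 at 0 hr, 9.98 to 10.18 at 4 hr and 10.70 to 10.79 at 8 hr, a difference of 0.74 ± 0.085 at 8 hr (1.67-fold, limma adjusted p = 3.63e-05). *G6pdx*, glucose 6-phosphate dehydrogenase, the entry enzyme, rose by 0.34 at 8 hr (limma adjusted p = 0.00407). *Tkt*, transketolase of the non-oxidative branch, rose by 0.28 from 4 to 8 hr only, and missed the threshold in some fits without 1 library. *Taldo1*, transaldolase, had the highest level per kb of the 38 genes with 854 CPM per kb, and its differences of -0.29 and -0.36 missed the threshold. Without WT replicate 1 at 4 hr both passed it (limma adjusted p = 0.0104 and 0.0217), and the second passed it without WT replicate 2 at 4 hr or S513A replicate 2 at 8 hr (limma adjusted p = 0.0221 and 0.0277). Its lowest libraries were WT replicate 2 at 4 hr, at 9.43, and S513A replicate 1 at 8 hr, at 9.50.

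Of the 11 genes that rose and the 4 that fell between 4 and 8 hr, 5 lay near the threshold, namely *Hk2*, *Pgam1*, *Pdk3*, *Tkt* and *Hif1a*, with limma adjusted p values of 0.0475, 0.0341, 0.0381, 0.033 and 0.0348. The count that rose was 7 without any one of WT replicate 1 at 8 hr, S513A replicate 1 at 0 hr, S513A replicate 2 at 0 hr, S513A replicate 2 at 4 hr or S513A replicate 1 at 8 hr. *Hk3*, *Pfkl*, *Pfkfb3*, *Pgd*, *Vegfa*, *P4ha1* and *G6pdx* rose, and *Pfkp*, *Epas1* and *Ero1l* fell, with smaller p values. Shares of all genes in the fits without 1 library were not taken.

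Other genes of the same pathways, from lists of textbook members, were called in both directions too. As given above, 29.1% of all genes rose and 26.7% fell at 4 hr, and 24.5% rose and 21.6% fell at 8 hr. Of 14 further glycolysis genes tested, 1 rose and 8 fell at 4 hr, and 3 rose and 7 fell at 8 hr, with medians of -0.67 and -0.40. *Slc2a8*, which encodes the transporter GLUT8, fell, with log2 differences of -1.22 and -1.11, and *Tigar*, a fructose 2,6-bisphosphatase, rose by 0.53 and 0.38. Of 10 further genes of pyruvate entry, 2 rose and 2 fell at each time. *Pdk2* and *Pdp1*, a kinase and a phosphatase of pyruvate dehydrogenase, fell at 4 hr, with differences of -2.83 and -1.76, and pyruvate carboxylase, *Pcx*, rose by 0.40 and 1.73. Of 8 further pentose phosphate genes, 1 rose and 3 fell at 4 hr, and 2 rose and 2 fell at 8 hr. *H6pd*, the hexose 6-phosphate dehydrogenase of the endoplasmic reticulum, rose by 0.78 at 8 hr.

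Of 8 further HIF pathway genes, 2 rose at 4 hr, and 1 rose and 1 fell at 8 hr. *Vhl*, which targets hydroxylated HIF alpha for degradation, rose by 0.55 and 0.80. Of 20 further HIF response genes, 5 rose and 10 fell at 4 hr, and 6 rose and 9 fell at 8 hr, with medians of -0.39 and -0.24. *Ak4*, a mitochondrial adenylate kinase, rose by 4.65 and 3.19, and *Lox*, lysyl oxidase, by 3.96 and 4.37. *Ndrg1* fell, with differences of -1.36 and -2.36. *Mxi1*, a MYC antagonist, and *Bhlhe40*, a transcriptional repressor, fell too, the first with -1.91 and -2.02 and the second with -2.04 and -1.57. Against 29.1% and 24.5% of all genes that rose, the 5 and 6 of 20 that rose lay near the background. The 10 and 9 of 20 that fell lay above the 26.7% and 21.6% of all genes that fell, and this excess was not tested.

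Within WT PECs, 8 of the 38 genes rose and 12 fell at 4 hr, against 22.6% and 18.7% of all genes, and 11 rose and 6 fell at 8 hr, against 19.4% and 14.9%. Within S513A PECs, 8 rose and 13 fell at 4 hr, against 23.1% and 20.2% of all genes, and 12 rose and 9 fell at 8 hr, against 20.9% and 19.0%. *Slc2a6*, *Pfkp*, *Hif1a*, *Ero1l*, *P4ha1*, *P4ha2*, *Hk2* and *Slc2a1* were the 8 that rose at 4 hr in both. Of these calls, that of *P4ha2* in WT PECs (difference 0.73, limma adjusted p = 0.0418) was lost with a replicate block (0.055) and in 8 of the 12 fits without 1 library (0.0507 to 0.271), and without WT replicate 2 at 4 hr the difference was 0.41. That of *Hk2* in S513A PECs was lost without either S513A library at 0 hr or S513A replicate 1 at 4 hr (limma adjusted p = 0.0857, 0.109 and 0.156). With quantile normalization *Hk2* and *Slc2a1* passed in neither genotype. The counts within one genotype moved with single libraries, and the shares of all genes in the fits without 1 library were not taken. In WT PECs the 12 that fell at 4 hr became 5 without replicate 1 at 0 hr, and 7 without replicate 2 at 0 hr or replicate 2 at 4 hr, and the 11 that rose at 8 hr became 6 without replicate 1 or replicate 2 at 0 hr or replicate 1 at 8 hr, and 7 without replicate 2 at 8 hr. In S513A PECs the 13 that fell at 4 hr became 5 without replicate 2 at 0 hr and 8 without replicate 1 at 0 hr or either replicate at 4 hr, and the 9 that fell at 8 hr became 5 without replicate 1 at 8 hr. With quantile normalization the WT counts at 8 hr were 4 that rose and 10 that fell, against 16.0% and 20% of all genes, and the S513A counts 9 and 14, against 18.9% and 21.7%. At 4 hr that setting gave 6 that rose and 23 that fell in WT, against 18.3% and 22.3%, and 6 and 21 in S513A PECs, against 19.3% and 22.0%.

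**Figure D4:**
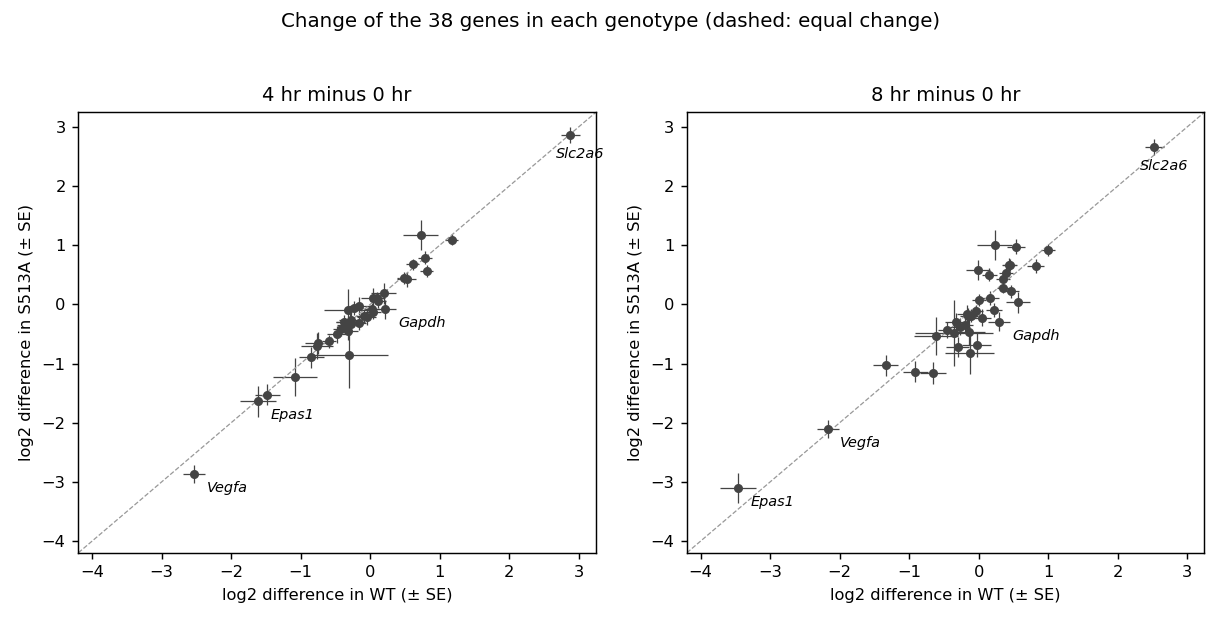
Log2 difference in level from 0 hr in WT (x axes, ± SE) and S513A PECs (y axes, ± SE) for the 38 genes at 4 hr (left) and 8 hr (right), with a dashed line of equal change. *Slc2a6*, *Vegfa* and *Epas1* lie far from 0 near the line at both times, and *Gapdh* at 8 hr lies at 0.30 in WT and -0.29 in S513A PECs.

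The comparison of genotypes asks whether the S513A allele altered expression of these genes. None of the 38 passed the threshold between S513A and WT PECs, against 0.0673% of all genes for the mean of the 3 times, 0.0337% at 0 hr, 0.0168% at 4 hr and 0.0337% at 8 hr. None passed it for a difference between genotypes in the response to 4 or 8 hr of LPS, against 0% of all genes in both comparisons. At an unadjusted limma p under 0.05, 4 of the 38 genes differed in the mean of times, against 798 of all 11885 genes. At 0, 4 and 8 hr the counts were 1, 3 and 6 of the 38, against 949, 833 and 1487 of all genes. For the response the unadjusted counts were 0 and 4, against 144 and 2405 of all genes, and limma with voom weights called 0 members in each. The estimated differences of the 38 genes ran from -0.62 to 0.39 at 0 hr, from -1.005 to 0.46 at 4 hr and from -0.58 to 0.31 at 8 hr, and the lowest at 4 hr was that of *Ankrd37*, the gene with the fewest reads (SE 0.56).

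For the mean of times the smallest p values were those of *Vegfa*, *Epas1* and *Aldoc*, all lower in S513A PECs, by -0.28 (95% confidence interval -0.48 to -0.08), -0.45 (-0.78 to -0.12) and -0.29 (-0.52 to -0.06), with limma adjusted p values of 0.566, 0.585 and 0.648. At 0 hr they were those of *P4ha2*, *Epas1* and *Taldo1*, all with a limma adjusted p of 0.586. *P4ha2* was at 1.39 and 1.32 in WT and 0.92 and 0.55 in S513A PECs, and *Taldo1* at 10.02 and 10.04 in WT and 10.40 and 10.44 in S513A PECs. The genotypes did not overlap for these genes at 0 hr, and the differences were -0.62, -0.56 and 0.39. The genes were picked by their p values in this same comparison. How often the genotypes separate in this way among all genes was not tested. In a fit of only the 4 libraries at 0 hr, *Epas1* and *Taldo1* passed the threshold (limma adjusted p = 0.0431 and 0.0454), 2 of the 38 genes against 5.83% of all genes in that fit. Without the 3 deviating libraries they passed it too (limma adjusted p = 0.0234 and 0.0241), against 10.5% of all genes, so neither share lay above that of all genes.

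At 4 hr the smallest p values were those of *Vegfa* (difference -0.53), *Epas1* (-0.59) and *Ero1l* (-0.22), all with a limma adjusted p of 0.622. *Ero1l* was at 5.91 and 5.96 in WT and 5.78 and 5.65 in S513A PECs, and the S513A libraries lay below the WT libraries for *Vegfa* and *Ero1l* but overlapped them for *Epas1*. At 8 hr they were those of *Hk3* (0.29), *Hif1a* (0.25) and *Aldoc* (-0.42), with a limma adjusted p of 0.395. *Hk3* was at 9.31 and 9.44 in WT and 9.68 and 9.64 in S513A PECs, without overlap. The genes at 4 and 8 hr were picked by their p values too, and the separation of genotypes among all genes was not tested.

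For the response from 0 to 4 hr, *Ero1l*, *Vegfa* and *Gapdh* had the smallest p values, with responses in S513A PECs that differed from those in WT by -0.25, -0.34 and -0.30 (limma adjusted p of 1). For the response from 0 to 8 hr they were *Gapdh* (-0.59, limma adjusted p = 0.206), *Hk1* (0.59, 0.229) and *Hk2* (0.44, 0.232). *Hk1* went from 6.69 and 6.46 to 6.56 and 6.57 in WT PECs and from 6.27 and 6.32 to 7.05 and 6.69 in S513A PECs. *Hk2* went from 6.17 in both WT libraries to 6.75 and 6.65, and from 6.04 and 6.00 to 7.10 and 6.90 in S513A PECs. Both genes were highest in S513A replicate 1 at 8 hr, one of the deviating libraries.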

How the data were processed

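RNA-seq of PECs from WT and S513A mice at 0, 4 and 8 hr of LPS gave 12 libraries. The authors mapped reads with HISAT2 and counted them with featureCounts 1.6.3, per the labels and the methods, as unstranded, so reads of overlapping antisense genes cannot be told apart. The deposited values are log2 CPM, computed by the authors from reads plus 0.5 over an effective library size. The steps between values gave whole reads for every gene (largest departure 0.00103 read). Reads per library are given with the results.

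limma 3.58.1 (R 4.3.3) was fitted on the deposited log2 values with a mean per group, 6 residual degrees of freedom and a prior following the mean level. A gene had to reach 1 CPM in 2 or more libraries (11885 genes), and the two-sided adjusted p threshold was 0.05. The fit was tested on simulated data. Library values are given for members past the threshold from 0 hr with a log2 difference of at least 1, and for the 3 smallest p values between genotypes, and further ones were added for context. The members and lists were chosen with earlier results of these data known. Principal transcript lengths are from the GENCODE annotation of GRCm38, and gene positions and promoters from RefSeq, GRCm38.p6. Alternatives covered filters, a pseudocount, scaling, the prior, voom weights, blocks, the libraries fitted and each library left out. Leaving out 2 or 3 deviating libraries together was added after seeing the data.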

Additional observations from a re-analysis of the deposited data

Results flagged for a closer look

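*Gapdh* and *Aldoa* were picked out by the order of their libraries, in a screen of all members at both times after LPS. For both genes, every WT library at 8 hr lay above, and every S513A library at 8 hr below, the 0 hr libraries of its genotype. With so few libraries per group, such an order can arise from the spread between replicates. How often it occurs among all genes was not tested, so the order alone does not mark these genes as unusual. *Gapdh* was at 5.99 and 6.09 in WT PECs at 0 hr and 6.28 and 6.40 at 8 hr, and at 6.37 and 6.25 in S513A PECs at 0 hr and 5.89 and 6.14 at 8 hr. The change in S513A minus that in WT PECs was -0.589 for *Gapdh* and -0.308 for *Aldoa*. Tested as an interaction among all genes, neither difference passed the threshold (limma adjusted p = 0.206 and 0.296). Over the alternatives, the adjusted p for *Gapdh* ranged from 0.0546 to 0.587, and without S513A replicate 1 at 8 hr the difference was -0.46. *Gapdh* shares 25.1% of its exon windows with other annotated genes.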

How the results depend on the processing

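Over the 38 genes in 13 comparisons, 12577 values were recomputed under 26 alternatives, of which 272 lost the threshold, 138 gained it and 5 gained it with the opposite sign. The 5 were under quantile normalization, with *Pgd* at -0.34 and *Aldoa* at -0.29 in the mean of genotypes at 4 and 8 hr and *Aldoa*, *G6pdx* and *Pgd* at -0.45, -0.36 and -0.36 in WT at 4 hr. No difference past the threshold took the opposite sign. Only differences past the threshold in the reported fit could lose it, and all of those were comparisons of times. The 12577 values are therefore not the base for the 272. With quantile normalization, the members lower at 4 hr numbered 23 in place of 15 in the mean of genotypes, 23 in WT and 21 in S513A PECs, and those lower at 8 hr numbered 16 in the mean, 10 in WT and 14 in S513A PECs, while 4 were higher at 8 hr in WT. This setting moved the median of all genes by at most 0.09, and the cause of the larger counts was not tested. In fits of only the libraries compared, which have fewer samples, 7 were higher at 8 than at 4 hr, 7 were lower at 4 hr in WT and 10 were lower at 8 hr in WT. Between genotypes at 0 hr 2 differed, against 5.83% of all genes. For the other fits of this kind the shares of all genes were not taken. A change in those member counts therefore cannot be told apart from one over all genes. Without the 3 deviating libraries, a setting chosen after seeing the data, 2 differed at 0 hr, and without WT replicate 2 at 4 hr and S513A replicate 1 at 8 hr alone none did.

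Leaving out 1 library at a time, in the mean of genotypes the members higher at 4 hr numbered 8 to 9 and those lower 13 to 17. At 8 hr they numbered 11 to 14 and 7 to 12, and from 4 to 8 hr 7 to 11 and 3 to 5. In WT they numbered 7 to 9 and 5 to 13 at 4 hr, and 6 to 11 and 4 to 7 at 8 hr. In S513A they numbered 7 to 8 and 5 to 15 at 4 hr, and 9 to 12 and 5 to 11 at 8 hr. No member was called between genotypes in these fits. A lone library left in a group is assumed to vary like the other groups. Shares of all genes were not taken in these fits, so a change in a member count cannot be told apart from one over all genes. Leaving out a library outside a comparison changes only the estimated spread and not the difference.

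With a replicate block, 8 members were higher and 15 lower at 4 hr, 12 and 10 at 8 hr, and 9 and 3 from 4 to 8 hr. Shares of all genes with the block were not taken. The labels do not say what the replicate numbers share. Correlations of deviations between same-numbered libraries ran from -0.412 to 0.417 over all groups, from -0.0984 to 0.0807 within WT and from 0.0867 to 0.417 within S513A, not all over 0.1, and the block changed no count by more than 1.5 times. The 2 libraries per group limit precision, and changes of *Ankrd37* and *Egln3* were limited by their reads. *Ankrd37*, *Egln3* and *P4ha2*, below a mean of 5 CPM, had no value under the stricter filter, and the block within each genotype was run for the LPS contrasts only.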
